A study of Mus musculus with 19 samples.

Results

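Slc2a2, Gckr, Pfkl, Pfkfb1, Pklr, Khk and Tkfc are 7 genes that liver uses to take up glucose and fructose and to break them down. They were taken by symbol from the count table, where all 7 of 7 were among its 24421 gene symbols and among the 13293 genes tested. The study sequenced total RNA of mouse liver in 19 libraries of 4 groups. The animals had received antisense oligonucleotides (ASO, short synthetic strands that direct the destruction of a matching RNA) against the lipid droplet protein perilipin 5 (PLIN5), or control ASO, in 2 injections a week for 3 weeks. All were fasted overnight on a background of purified normal diet, and part of them were then fed again for 4 h before the liver was taken. The groups were re-fed liver under PLIN5 ASO (n = 5), re-fed liver under control ASO (n = 5), fasted liver under PLIN5 ASO (n = 5) and fasted liver under control ASO (n = 4, numbered 1, 3, 4 and 5). The sources used here give no strain, sex or age of the mice. The labels do not say whether libraries of a group came from separate animals, so p-values measure only the spread between these samples. No second oligonucleotide is named, so loss of Plin5 and other effects of the PLIN5 oligonucleotide cannot be told apart.

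Liver takes up sugar by facilitated diffusion and breaks it down to pyruvate. GLUT2, encoded by Slc2a2, carries glucose and fructose across the hepatocyte membrane. Gckr encodes a nuclear regulatory protein of hepatic glucose use. Phosphofructokinase (Pfkl, the liver type subunit) commits the hexose to glycolysis under control of fructose 2,6-bisphosphate, which the bifunctional enzyme PFKFB1 makes and breaks down, and pyruvate kinase (Pklr) catalyses the last step. Fructose enters below phosphofructokinase through ketohexokinase (Khk) and, further on, triokinase (Tkfc). Insulin, acting through SREBP-1c, and sugar itself, acting through the carbohydrate response element binding protein (ChREBP, gene Mlxipl), raise transcription of many of these genes after a meal.

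Libraries held 24.9 to 66.9 counts in units of 1e6, and the members had between 778 counts (the lowest library of Pfkfb1) and 36739 counts (the highest library of Khk). The targeted gene Plin5 fell under PLIN5 ASO by 2.28 on the log2 scale in re-fed liver (adjusted p = 0.00119, edgeR quasi-likelihood test) and by 2.01 in fasted liver (adjusted p = 0.00257). By the clock gene Arntl 4 libraries stood apart, called clock-shifted here: fasted PLIN5 ASO 3 and 5 had 14.6 and 15 CPM (counts scaled to 1e6 per library, with TMM factors) and re-fed control ASO 3 and 5 had 23.8 and 45.0 CPM, against at most 4.87 CPM in the other libraries. Fasted control ASO 3 and 4 were the most alike of 36 within-group pairs: chi-square divided by its degrees of freedom was 3.21 for them and 18.4 or more for any other pair. Whether they came from 1 liver is not given, and they are counted as separate libraries here. Summed as 1 sample, they left 36 instead of 156 genes passing between ASOs in fasted liver. On re-feeding under control ASO 1139 instead of 1759 genes then passed. Members passing stayed at 0 and 3 in these comparisons. Albumin, the defining hepatocyte product, had 53343 to 102661 CPM in the 19 libraries, while 6 pancreas, fat, muscle and blood markers summed to between 0.195 and 1.49 CPM. Both haemoglobin genes of that list (Hbb-bs and Hba-a1) were at 0 in all 19 libraries, so the sum carries no value for blood. In bulk liver, fewer cells of a type and less RNA per cell cannot be told apart.

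The promoters of 4 members are shown because they cover the span of feeding responses described below, with the steepest (Pklr, Tkfc), an intermediate one (Khk) and the flat one (Pfkl). RefSeq promoter windows of 250 bases before to 50 bases after a start site (build GRCm38.p6) were found for 7 of 7 members, 11 windows in all. They were searched on both strands for the E box CACGTG and for a carbohydrate response element made of a pair of E-box-like parts, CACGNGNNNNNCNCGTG; both patterns read the same on either strand. Matches are in capitals.
Pklr downstream start, chr3:89136373-89136672, plus strand: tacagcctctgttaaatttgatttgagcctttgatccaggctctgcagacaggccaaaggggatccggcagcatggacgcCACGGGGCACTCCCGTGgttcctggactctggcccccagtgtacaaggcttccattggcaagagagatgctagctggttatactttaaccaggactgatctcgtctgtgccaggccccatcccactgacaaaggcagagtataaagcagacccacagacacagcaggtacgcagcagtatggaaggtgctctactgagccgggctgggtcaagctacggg
Khk, chr5:30921309-30921608, plus strand: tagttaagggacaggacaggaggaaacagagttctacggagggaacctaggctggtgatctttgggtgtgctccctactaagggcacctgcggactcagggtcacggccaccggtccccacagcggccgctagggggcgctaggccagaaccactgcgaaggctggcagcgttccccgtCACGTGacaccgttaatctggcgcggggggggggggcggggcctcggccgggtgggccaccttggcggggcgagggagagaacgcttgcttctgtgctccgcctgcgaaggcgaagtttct
Tkfc, chr19:10604209-10604508, minus strand: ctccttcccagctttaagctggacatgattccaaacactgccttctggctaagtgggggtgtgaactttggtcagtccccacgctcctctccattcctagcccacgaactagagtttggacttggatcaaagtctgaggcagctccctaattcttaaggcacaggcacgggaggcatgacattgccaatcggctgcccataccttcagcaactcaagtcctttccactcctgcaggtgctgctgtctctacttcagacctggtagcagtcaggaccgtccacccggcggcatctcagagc
Pfkl, chr10:78009758-78010057, minus strand: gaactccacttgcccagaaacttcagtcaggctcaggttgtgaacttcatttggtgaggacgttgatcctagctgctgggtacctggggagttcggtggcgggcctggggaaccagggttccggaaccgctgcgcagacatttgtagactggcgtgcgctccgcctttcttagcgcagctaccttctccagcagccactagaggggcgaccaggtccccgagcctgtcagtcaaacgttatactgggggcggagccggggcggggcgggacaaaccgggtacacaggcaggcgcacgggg
The long element occurred in the window of the downstream Pklr start, at positions -170 to -154 from the start site, and in 15 of all 32851 promoter windows (0.0457%). The Khk window held an E box at positions -71 to -66, as did 2349 of all windows (7.15%). No other window of the 7 genes held either run of letters, which says nothing about binding outside these windows or to variant sites. The 15 windows with the long element belonged to 14 gene symbols, of which 5 were tested; 1 of the 5, Pklr itself, rose on re-feeding under PLIN5 ASO, and likewise under control ASO. A match is a description of the sequence, and no binding was measured.

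Compared per transcript length, as the authors' deposited FPKM (fragments per kilobase of transcript and per 1e6 fragments), the members differed widely in level. Khk was the most abundant in each group, at 668 ± 174 FPKM in re-fed PLIN5 ASO livers, 549.6 ± 65.7 FPKM in re-fed control ASO livers, 341 ± 80.2 FPKM in fasted PLIN5 ASO livers and 366 ± 46.7 FPKM in fasted control ASO livers (SD). Pfkl was the lowest in each group, with group means between 9.50 and 9.85 FPKM. In re-fed liver Pklr came next to Khk, at 230.2 ± 119 FPKM under PLIN5 ASO and 284 ± 53.3 FPKM under control ASO, but its range overlapped that of Tkfc in both groups. In fasted liver Slc2a2 took that place, at 92.7 ± 23.7 FPKM under PLIN5 ASO and 81.2 ± 6.03 FPKM under control ASO, again with a range that overlapped that of Tkfc in both groups. Fasted Pklr and Gckr overlapped in their ranges under either ASO, and Pfkfb1 was above Pfkl in every library.

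**Figure D1:**
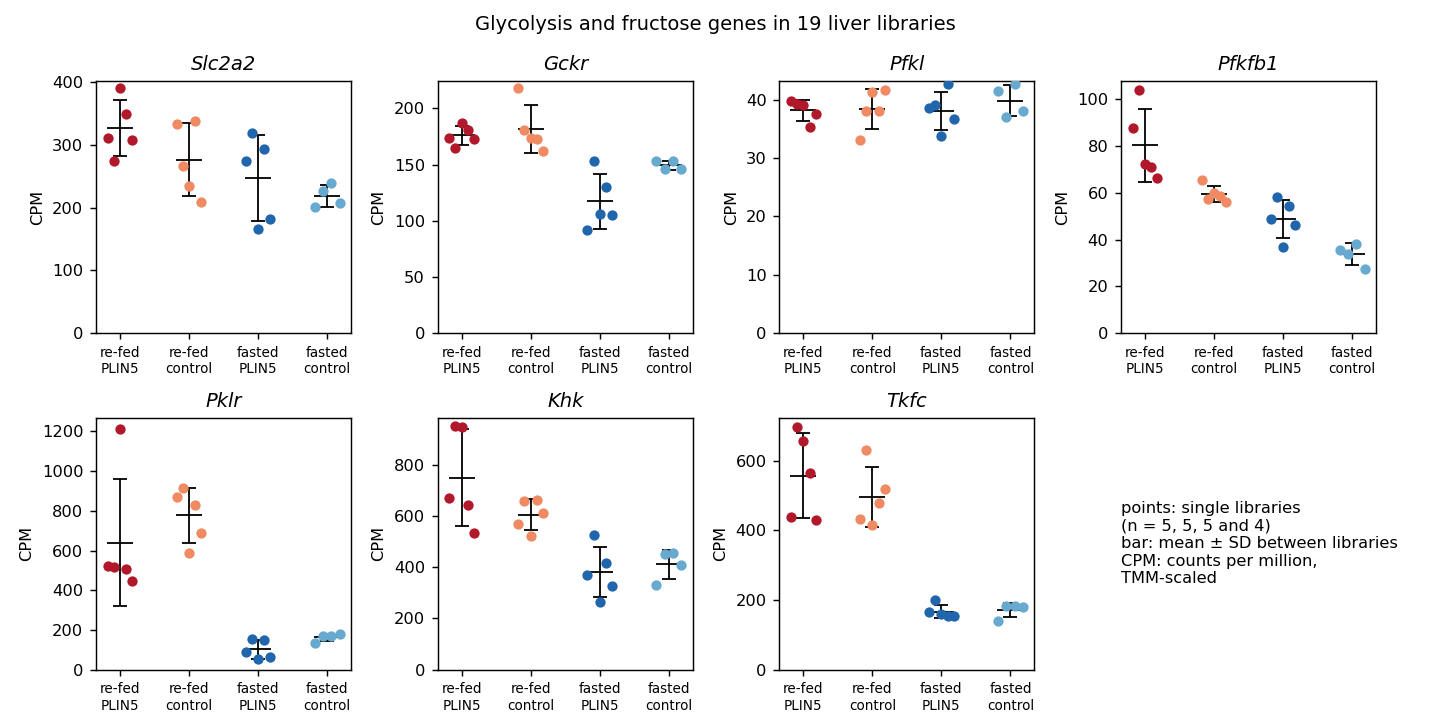
Level of the 7 genes in single libraries (points, CPM on a linear axis from 0), with the mean and SD between libraries. Groups are re-fed PLIN5 ASO (n = 5), re-fed control ASO (n = 5), fasted PLIN5 ASO (n = 5) and fasted control ASO livers (n = 4). Pklr and Tkfc show the widest gap between re-fed and fasted livers, Pfkl lies between 33.0 and 42.7 CPM throughout, and 1 re-fed PLIN5 ASO liver has 1211 CPM of Pklr.

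The first pair of comparisons asked how these genes answered to 4 h of re-feeding under each oligonucleotide. Under PLIN5 ASO 5 of 7 members rose (Gckr, Pfkfb1, Pklr, Khk and Tkfc), against 4.5% of all genes called higher and 8.64% called in either direction. Under control ASO 3 of 7 rose (Pfkfb1, Pklr and Tkfc), against 6.42% of all genes called higher and 13.2% called in either direction. None of the 7 fell in either comparison, against 4.14% of all genes called lower under PLIN5 ASO and 6.82% under control ASO. The median log2 fold change of the 7 was 0.72 under PLIN5 ASO and 0.55 under control ASO, beside 0.00 and 0.03 over all genes tested. In each comparison re-fed and fasted libraries did not overlap for 5 of 7 members (Gckr, Pfkfb1, Pklr, Khk and Tkfc), beside 7.57% of all genes under PLIN5 ASO and 16.3% under control ASO.

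**Figure D2:**
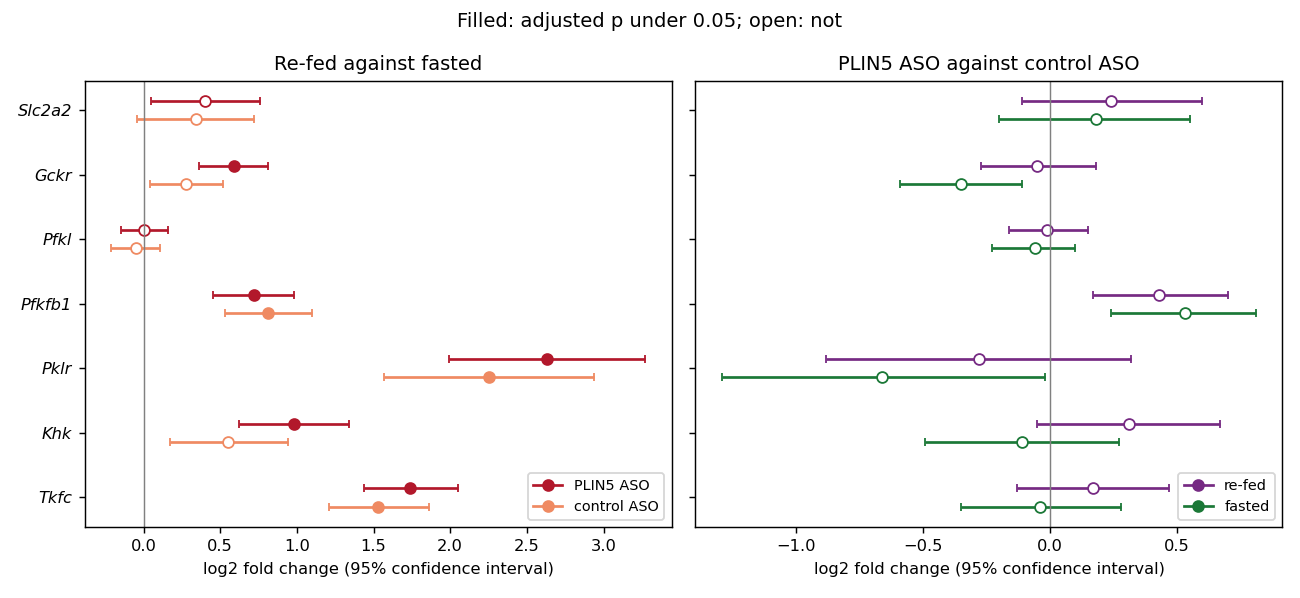
Log2 fold change with its 95% confidence interval for each gene, on the left re-fed against fasted under PLIN5 ASO (n = 5 against 5) and control ASO (n = 5 against 4), on the right PLIN5 ASO against control ASO in re-fed and fasted liver. Filled circles passed an adjusted p of 0.05; 5 and 3 of 7 are filled on the left and 0 on the right, where Pfkfb1 lies at 0.43 and 0.53.

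Pklr (ENSMUSG00000041237.12, chromosome 3, 89136142 to 89146784, plus strand) had the steepest feeding response of the 7. It has an upstream start used in red cells and the downstream start printed above, used in liver; counts per gene do not separate them. Re-fed PLIN5 ASO livers held 522, 516, 1211, 505 and 448 CPM, against 90.9, 156, 52.2, 152 and 66.2 CPM in fasted PLIN5 ASO livers. Under control ASO, re-fed livers held 869, 917, 586, 828 and 688 CPM, against 136, 168, 168 and 181 CPM in fasted control ASO livers. Every re-fed liver was thus above every fasted one, and re-fed PLIN5 ASO 3 stood far above the other libraries of its group. Pklr rose 6.19-fold under PLIN5 ASO (95% confidence interval 3.98 to 9.65; log2 fold change 2.63, SE 0.31, adjusted p = 3.14e-05), and 4.76-fold under control ASO (interval 2.96 to 7.66; log2 fold change 2.25, SE 0.33, adjusted p = 0.000262). Among the 13293 genes its log2 fold change ranked 14 under PLIN5 ASO and 55 under control ASO. Without re-fed PLIN5 ASO 3 the log2 fold change of Pklr under PLIN5 ASO was 2.27 (adjusted p = 4.94e-05), and leaving out the 4 clock-shifted ones gave 2.27 under PLIN5 ASO (adjusted p = 0.000319) and 2.42 under control ASO (adjusted p = 0.00022).

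The exons of Pklr share 711 bases with Hcn3, a channel gene on the opposite strand, and the sources used here do not say whether counting used strand. Hcn3 counts moved with Pklr: 23.9 to 88.3 CPM in re-fed PLIN5 ASO livers against 1.01 to 6.63 CPM in fasted PLIN5 ASO livers, and 28.9 to 65.1 CPM in re-fed control ASO livers against 6.06 to 14.6 CPM in fasted control ASO livers. That was 1.93% to 12.2% of the Pklr level in the same library. In the authors' deposited FPKM, in contrast, Hcn3 was at most 0.0638 in every library, while Pklr showed its feeding response in FPKM as well. Without strand, reads of the overlap cannot be assigned to one gene or the other.

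Tkfc (ENSMUSG00000034371.9, chromosome 19, 10587791 to 10605654, minus strand), whose product phosphorylates the glyceraldehyde released from fructose, came next. Re-fed PLIN5 ASO livers had 440.1, 696, 658, 565 and 429 CPM, against 166, 200, 160.4, 154 and 153 CPM in fasted PLIN5 ASO livers. Under control ASO Tkfc had 432, 632, 415, 479 and 520.2 CPM in re-fed livers, against 140.1, 184, 182 and 179 CPM in fasted control ASO livers. The lowest re-fed liver was above the highest fasted liver by more than the whole fasted range. Tkfc rose 3.35-fold under PLIN5 ASO (interval 2.71 to 4.13; log2 fold change 1.74, SE 0.15, adjusted p = 1.06e-06) and 2.89-fold under control ASO (interval 2.31 to 3.63; log2 fold change 1.53, SE 0.16, adjusted p = 8.53e-06). Its exons overlap those of Ddb1 (328 bases) and Cyb561a3 (596 bases) on the other strand. Ddb1 had 178 to 205 CPM in re-fed and 163 to 185 CPM in fasted PLIN5 ASO livers. Under control ASO it had 190 to 208 CPM in re-fed and 148 to 182 CPM in fasted livers, without overlap. The Ddb1 level was 92.2% to 117% of that of Tkfc in fasted livers and 25.6% to 47.2% in re-fed livers. Cyb561a3 had 16.7 to 31.8 CPM over all libraries. Since the strand setting is not given, the part of the overlaps in the Tkfc levels was not tested.

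Khk (ENSMUSG00000029162.15, chromosome 5, 30921431 to 30931248, plus strand) encodes the kinase that makes fructose 1-phosphate. Re-fed PLIN5 ASO livers had 671, 949, 948, 643 and 535 CPM, against 370.3, 526, 266, 415 and 327 CPM in fasted PLIN5 ASO livers. Under control ASO Khk had 570.2, 659, 520.2, 662 and 611 CPM in re-fed livers, against 332, 451, 454 and 409.5 CPM in fasted control ASO livers. The groups did not overlap under either oligonucleotide, although under PLIN5 ASO only 535 and 526 CPM separated them. Khk rose 1.97-fold under PLIN5 ASO (interval 1.53 to 2.52; log2 fold change 0.98, SE 0.17, adjusted p = 0.0014). Under control ASO it was 1.47-fold higher (interval 1.13 to 1.91; log2 fold change 0.55, SE 0.18), which missed the threshold at an adjusted p of 0.0507. That value passed in 12 of 31 alternative settings, with adjusted p between 0.0107 and 0.146 over all of them. It was 0.0468 without the 4 clock-shifted libraries. It also passed when fasted PLIN5 ASO 2 or 3, or re-fed PLIN5 ASO 2, 3 or 5, was left out (0.0329 to 0.0468). None of these PLIN5 ASO libraries is in the comparison, and without any of them the log2 fold change stayed at 0.55. Leaving out any single control ASO library gave no call.

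Gckr (ENSMUSG00000059434.9, chromosome 5, 31297443 to 31327314, plus strand) had a smaller response. Re-fed PLIN5 ASO livers had 174, 165, 187, 181 and 173 CPM, against 91.9, 153, 106, 130.3 and 105 CPM in fasted PLIN5 ASO livers. Under control ASO Gckr had 218, 180.4, 174, 173 and 162 CPM in re-fed livers, against 153, 146, 153 and 146 CPM in fasted control ASO livers. The re-fed groups lay close together, and the fasted PLIN5 ASO livers were the most scattered, 4 of 5 of them below every fasted control ASO liver. Gckr rose 1.5-fold under PLIN5 ASO (interval 1.28 to 1.76; log2 fold change 0.59, SE 0.11, adjusted p = 0.00204). Under control ASO the ratio was 1.22 (interval 1.03 to 1.44; log2 fold change 0.28, SE 0.12, adjusted p = 0.11), although the groups did not overlap.

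Slc2a2 (ENSMUSG00000027690.13, chromosome 3, 28697903 to 28731359, plus strand) was the one transporter among the 7. Re-fed PLIN5 ASO livers had 312, 275, 391, 350.3 and 308 CPM, against 274, 319.6, 166, 294 and 182 CPM in fasted PLIN5 ASO livers. Re-fed control ASO livers had 333, 266, 235, 339 and 209 CPM, against 201, 227, 239 and 207 CPM in fasted control ASO livers. The groups overlapped in both comparisons, and the log2 fold changes of 0.40 under PLIN5 ASO (SE 0.17, adjusted p = 0.15) and 0.34 under control ASO (SE 0.18, adjusted p = 0.223) did not pass. The clock-shifted libraries fasted PLIN5 ASO 3 and 5 were the lowest of their group, and re-fed control ASO 3 and 5 were the lowest of theirs. With these 4 libraries left out the log2 fold change was 0.14 under PLIN5 ASO (adjusted p = 0.485) and 0.52 under control ASO (adjusted p = 0.0131). What sets those libraries apart was not tested.

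Pfkfb1 (ENSMUSG00000025271.13, chromosome X, 150588229 to 150643878, plus strand) had 87.7, 104, 72.2, 71.2 and 66.2 CPM in re-fed PLIN5 ASO livers, against 48.7, 58.1, 36.8, 54.3 and 46.4 CPM in fasted PLIN5 ASO livers. Re-fed control ASO livers had 65.4, 57.3, 60.1, 58.6 and 56.2 CPM, against 35.6, 33.9, 38.3 and 27.5 CPM in fasted control ASO livers. All re-fed livers were above all fasted livers under the same oligonucleotide. Pfkfb1 rose 1.64-fold under PLIN5 ASO (interval 1.37 to 1.98; log2 fold change 0.72, SE 0.13, adjusted p = 0.00152) and 1.76-fold under control ASO (interval 1.44 to 2.14; log2 fold change 0.81, SE 0.14, adjusted p = 0.000848).

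Pfkl (ENSMUSG00000020277.10, chromosome 10, 77986947 to 78010083, minus strand), the enzyme that the product of PFKFB1 activates, had no detectable response. Re-fed PLIN5 ASO livers had 39.8, 39.3, 39.0, 35.3 and 37.5 CPM, against 38.5, 39.0, 33.8, 42.6 and 36.6 CPM in fasted PLIN5 ASO livers. Re-fed control ASO livers had 33.0, 38.0, 41.3, 38.1 and 41.6 CPM, against 41.4, 37.0, 42.7 and 38.1 CPM in fasted control ASO livers. The ranges overlapped throughout. The ratio of re-fed to fasted was 1 under PLIN5 ASO (interval 0.90 to 1.12, adjusted p = 0.988) and 0.965 under control ASO (interval 0.862 to 1.08, adjusted p = 0.713). The sign of so small a value differed between settings.

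Averaged over both oligonucleotides, a contrast added after the values were seen, 6 of 7 members rose on re-feeding, against 10.4% of all genes called higher and 20.1% called in either direction. The exception was Pfkl (log2 fold change -0.02, SE 0.05, adjusted p = 0.803). Slc2a2 joined the others at 0.37 (SE 0.12, adjusted p = 0.0399), but it passed in only 17 of 30 alternative settings. It lost the call when any 1 of these libraries was left out: fasted PLIN5 ASO 3 or 5, fasted control ASO 1, 3, 4 or 5, re-fed PLIN5 ASO 3 or 4, and re-fed control ASO 1 or 4 (adjusted p between 0.0504 and 0.0764). The Slc2a2 call was also lost without the filter on low counts (adjusted p = 0.0501) and with fasted control ASO 3 and 4 summed (0.0554). With the length trend taken out it was lost as well (0.0892). The averaged log2 fold change was 2.44 for Pklr (SE 0.22, adjusted p = 5.96e-07), 1.64 for Tkfc (SE 0.11, adjusted p = 1.09e-08), 0.76 for both Khk and Pfkfb1, and 0.43 for Gckr (SE 0.08, adjusted p = 0.000697).

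Of 25 other glycolysis genes tested, 5 rose and 1 fell on re-feeding under PLIN5 ASO, where 8.64% of all genes passed. Under control ASO 4 rose and 1 fell, where 13.2% of all genes passed, and their median log2 fold changes were 0.13 under PLIN5 ASO and 0.20 under control ASO. Glucose phosphate isomerase (Gpi1, an enzyme of upper glycolysis) rose under PLIN5 ASO by 0.69 (adjusted p = 0.0086). Aldoc, a minor aldolase in liver, rose under control ASO by 0.99 (adjusted p = 0.000458), at 7.67 to 12.9 CPM in re-fed and 4.86 to 6.30 CPM in fasted livers.

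Lactate dehydrogenase A (Ldha), which interconverts pyruvate and lactate, was the 1 glycolysis gene that fell. It had 558 to 844 CPM in re-fed PLIN5 ASO livers against 951 to 1349 CPM in fasted PLIN5 ASO livers, and 550.1 to 719 CPM in re-fed control ASO livers against 899 to 1007 CPM in fasted control ASO livers. Its log2 fold change was -0.70 under PLIN5 ASO (SE 0.11, adjusted p = 0.000656) and -0.53 under control ASO (SE 0.12, adjusted p = 0.00632), and neither group pair overlapped. Gapdh rose under PLIN5 ASO (log2 fold change 1.68, SE 0.39, adjusted p = 0.0114), but unevenly: re-fed PLIN5 ASO 3 and 5 had 189 and 125 CPM and the other re-fed PLIN5 ASO livers 40.0 to 53.9 CPM, against 26.6 to 33.1 CPM in fasted PLIN5 ASO livers. Gapdh has many near-identical copies in the mouse genome, as do several other glycolysis genes, and how reads matching several places were counted is not given, so its level is uncertain. The Gapdh call was kept in 27 of 31 alternative settings and lost in the 3 FPKM fits and without the 4 clock-shifted libraries. Eno1, also among the 25 tested, had 14, 17 and 5 counts in fasted PLIN5 ASO 1, 2 and 3. Its deposited FPKM there was 23.8, 35.9 and 19.7, so its change in counts is uncertain too. Pgam1, the mutase of lower glycolysis with such copies too, rose under PLIN5 ASO by 0.34 (adjusted p = 0.0315), a call kept in 22 of 31 alternative settings.

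**Figure D3:**
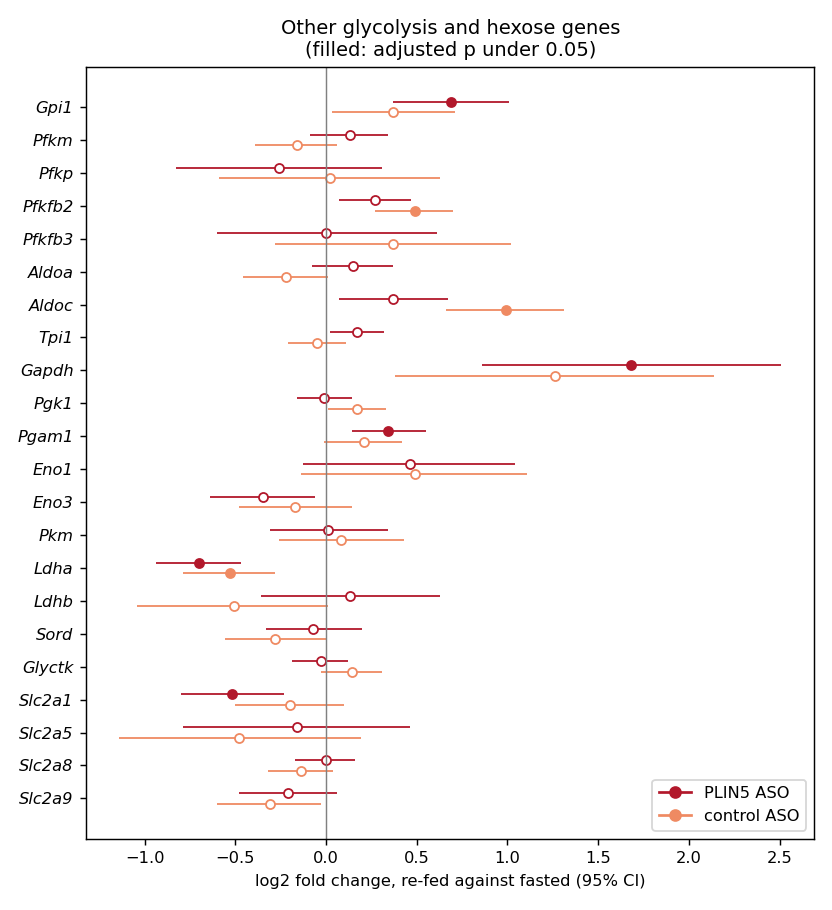
Log2 fold change on re-feeding with its 95% confidence interval for other glycolysis genes (Gpi1 to Ldhb) and other hexose genes (Sord to Slc2a9), under PLIN5 ASO and control ASO; filled circles passed an adjusted p of 0.05. Ldha is filled to the left of 0 under both and Slc2a1 under PLIN5 ASO, Gpi1, Gapdh and Pgam1 are filled to the right under PLIN5 ASO, and Pfkfb2 and Aldoc under control ASO. The count levels of Gapdh and Eno1 are uncertain.

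Of all genes, 8.64% passed in either direction on re-feeding under PLIN5 ASO and 13.2% under control ASO. Among 7 other tested genes of hexose transport, fructose and polyol metabolism, 1 rose and 1 fell under PLIN5 ASO, and 1 rose under control ASO. The one that rose was Slc2a4, the insulin-responsive transporter of muscle and fat, at a low level: 1.28 to 12.0 CPM in re-fed PLIN5 ASO livers against 0.0649 to 0.597 CPM in fasted PLIN5 ASO livers, and 0.434 to 6.71 CPM in re-fed control ASO livers against 0.212 to 0.794 CPM in fasted control ASO livers. The control ASO groups overlapped. Slc2a1, the transporter of most other tissues, fell under PLIN5 ASO by 0.52 on the log2 scale (adjusted p = 0.0233). Sorbitol dehydrogenase (Sord), which makes fructose from sorbitol, had log2 fold changes of -0.07 and -0.28 under PLIN5 ASO and control ASO (adjusted p = 0.799 and 0.175).

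The regulators and companion targets of the pathway were measured in the same fit. Of 8 sugar-responsive regulators 4 rose under PLIN5 ASO and 2 under control ASO, where 4.5% and 6.42% of all genes were called higher. Srebf1, which encodes the insulin-responsive SREBP-1c, rose by 2.45 (adjusted p = 5.15e-05) and 1.66 (adjusted p = 0.0019) on the log2 scale under PLIN5 ASO and control ASO. Mlxipl, which encodes ChREBP, rose by 0.55 (adjusted p = 0.0347, kept in 21 of 31 alternative settings) and 0.77 (adjusted p = 0.00531), and its partner Mlx rose by 0.59 under PLIN5 ASO (adjusted p = 0.000337). Of 10 ChREBP target genes other than the members, 7 rose under PLIN5 ASO and 6 under control ASO, with median log2 fold changes of 1.42 and 1.03. Of all genes 4.5% and 6.42% were called higher in these comparisons. Whether ChREBP, SREBP-1c or both raised the listed genes was not tested. Txnip, also of that list, overlapped between re-fed and fasted livers under both oligonucleotides. Under control ASO it had 34.7 to 124 CPM in re-fed livers against 60.1 to 98.7 CPM in fasted livers. Fasn, the fatty acid synthase, rose by 3.56 (adjusted p = 8.5e-08) and 3.66 (adjusted p = 5.72e-07). Klf10, a repressor induced by glucose, rose by 2.33 (adjusted p = 1.48e-06) and 0.96 (adjusted p = 0.00531). In the interaction edgeR called 0 of the 10 ChREBP targets (lowest adjusted p = 0.118) and DESeq2 called 1. Of all genes edgeR called 0.0226% there and DESeq2 called 93 of 13968.

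Genes of the opposing pathway, gluconeogenesis, did not move together. Of 6 tested, 1 rose and 1 fell under PLIN5 ASO: Slc37a4, the glucose 6-phosphate carrier, rose by 0.67 (adjusted p = 0.0213) and Pck1, the phosphoenolpyruvate carboxykinase, fell by 0.72 (adjusted p = 0.039) on the log2 scale. The Pck1 call was kept in 22 of 31 alternative settings and lost without the 4 clock-shifted libraries. Under control ASO 1 of 6 rose, namely G6pc, the glucose 6-phosphatase, by 1.21 (SE 0.28, adjusted p = 0.00762). Beside these counts, 8.64% of all genes passed in either direction under PLIN5 ASO and 13.2% under control ASO. G6pc had 514 to 1552 CPM in re-fed control ASO livers against 379 to 507 CPM in fasted control ASO livers, without overlap. The feeding comparisons under the 2 oligonucleotides use separate libraries, whereas each shares its libraries with the oligonucleotide comparisons.

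For the 5 members called in a feeding comparison within one ASO, the 3 genes with the smallest root mean square difference in log2 CPM, after centring each gene over the 19 libraries, were found among 12587 genes. For Khk they included Tkt, a transketolase of the pentose phosphate pathway, with a difference of 0.15, and Slc37a4 at 0.22, beside a median of 0.54 over all genes. For Pklr they were Elovl6 at 0.45, Srebf1 at 0.47 and Mid1ip1 at 0.52, all of fatty acid synthesis, beside a median of 1.38. For Tkfc they included Acaca at 0.31 and Pygl, the liver glycogen phosphorylase, at 0.36, beside a median of 0.88. For Gckr they were Gls2 at 0.13, Adk at 0.14 and Qdpr at 0.15, beside a median of 0.39, and for Pfkfb1 Chd1l at 0.22, Aldh1l1 at 0.23 and Haus7 at 0.23, beside a median of 0.54. These distances are descriptions over libraries that share the feeding and oligonucleotide groups.

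The second pair of comparisons asked whether PLIN5 ASO shifted these genes within a feeding state. By edgeR 0 of 7 members passed in re-fed liver, where 1.38% of all genes were called, and 0 of 7 in fasted liver, where 1.17% were called. At an unadjusted p under 0.05 there was 1 member in re-fed liver and 3 in fasted liver. The share of all genes at that threshold was not counted. DESeq2 called 1 member, Pfkfb1, in each state, while limma on FPKM called 0. Of all genes DESeq2 called 612 of 12204 in re-fed liver and 431 of 13262 in fasted liver. The median log2 fold change of the 7 was 0.17 in re-fed and -0.06 in fasted liver, beside -0.01 and 0.01 over all genes. Groups were separate without overlap for 1 of 7 members in re-fed liver (Pfkfb1), beside 4.22% of all genes, and for 0 of 7 in fasted liver, beside 7.13%.

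Pfkfb1 had the higher group mean under PLIN5 ASO in both states. In re-fed liver it averaged 80.3 ± 15.6 CPM under PLIN5 ASO and 59.5 ± 3.59 CPM under control ASO (SD, n = 5 each), and the lowest PLIN5 ASO liver, at 66.2 CPM, was just above the highest control ASO liver, at 65.4 CPM. In fasted liver it averaged 48.9 ± 8.13 CPM under PLIN5 ASO (n = 5) and 33.9 ± 4.58 CPM under control ASO (n = 4), with 1 PLIN5 ASO liver, at 36.8 CPM, inside the control ASO range. The single-state differences missed the threshold, with a log2 fold change of 0.43 in re-fed liver (SE 0.13, adjusted p = 0.0835) and 0.53 in fasted liver (SE 0.14, adjusted p = 0.0653). The fasted difference passed when fasted PLIN5 ASO 3 was left out (adjusted p = 0.0463), when re-fed PLIN5 ASO 2 was left out (adjusted p = 0.0335) and when all 4 clock-shifted livers were (log2 fold change 0.66, adjusted p = 0.0409). Re-fed PLIN5 ASO 2 is not in the fasted comparison, and without it the log2 fold change stayed at 0.53.

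Averaged over both feeding states, again a contrast added after the values were seen, Pfkfb1 was 1.39-fold higher under PLIN5 ASO (interval 1.22 to 1.60; log2 fold change 0.48, SE 0.09, adjusted p = 0.00915). It was the 1 member of 7 to pass, beside 2.99% of all genes, and it passed in 30 of 30 alternative settings, at log2 fold changes of 0.42 to 0.54. Its paralogue Pfkfb2, the heart-type enzyme of the same reaction, was the 1 of 25 other glycolysis genes that passed in this contrast, at 0.36 (SE 0.07, adjusted p = 0.00814) and also in 30 of 30 settings. Pfkfb2 had 41.1 to 53.6 CPM in re-fed PLIN5 ASO livers against 34.9 to 41.8 CPM in re-fed control ASO livers, and 32.2 to 45.7 CPM in fasted PLIN5 ASO livers against 24.4 to 29.9 CPM in fasted control ASO livers. The re-fed groups overlapped slightly and the fasted groups did not. Pfkfb3, the inducible form, had 30.7 ± 3.99 and 24.3 ± 6.19 CPM in re-fed PLIN5 ASO and control ASO livers, and 30.7 ± 10.8 and 18.8 ± 8.78 CPM in fasted PLIN5 ASO and control ASO livers, and did not pass. Cell type markers moved in the same averaged contrast: 2 of 10 macrophage markers, 2 of 7 stellate and fibroblast markers and 1 of 5 hepatocyte markers were called higher under PLIN5 ASO, and 1 of 6 endothelial markers lower. In re-fed liver the 5 hepatocyte markers summed to 105346 to 150662 CPM under PLIN5 ASO and 82816 to 110440.3 CPM under control ASO. Of them 1 was called higher, beside 1.38% of all genes called in either direction, and their median log2 fold change was 0.39. In fasted liver their sums were 92509.6 to 124894 CPM under PLIN5 ASO and 96521 to 112666 CPM under control ASO, with a median of -0.02 and 0 called. Their part in the Pfkfb1 and Pfkfb2 levels was not tested.

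The exons of Pfkfb1 share 123 bases with Apex2, a DNA repair endonuclease gene on the opposite strand. Apex2 was higher under PLIN5 ASO as well, at 7.74 to 9.83 CPM against 6.85 to 7.85 CPM under control ASO in re-fed liver, and at 7.65 to 9.52 CPM against 4.71 to 6.12 CPM in fasted liver. Its averaged log2 fold change was 0.46 (adjusted p = 0.00188). In single libraries the Apex2 level was 8.82% to 25.8% of that of Pfkfb1. Since the strand setting is not given, reads of the shared bases cannot be told apart, and the part of the overlap in either difference was not tested.

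Pklr and Gckr lay lower in fasted PLIN5 ASO livers without passing. Pklr averaged 103 ± 48.1 CPM in fasted PLIN5 ASO livers and 163 ± 19.3 CPM in fasted control ASO livers (log2 fold change -0.66, SE 0.30, adjusted p = 0.313). Gckr averaged 117 ± 24.2 CPM in fasted PLIN5 ASO livers and 149 ± 4.21 CPM in fasted control ASO livers (log2 fold change -0.35, SE 0.11, adjusted p = 0.144). The Gckr difference passed in 1 of 31 alternative settings, without fasted PLIN5 ASO 2 (-0.46, adjusted p = 0.0259). Without the 4 clock-shifted libraries the log2 fold change was -0.26 for Gckr (adjusted p = 0.4) and -0.3 for Pklr (adjusted p = 0.717). The 3 lowest Pklr values of fasted PLIN5 ASO livers, in libraries 1, 3 and 5, were also the 3 highest in the acute phase gene Saa1, which had 4170.1, 40.6, 4860.2, 121 and 2174 CPM in fasted PLIN5 ASO 1 to 5. Saa1 was chosen after values were seen, and libraries 3 and 5 are also clock-shifted, so this match draws no link. Fasted control ASO livers had 46.5 to 152 CPM of Saa1. The 10 macrophage markers summed to 131 to 351 CPM in fasted PLIN5 ASO livers and 119 to 139.7 CPM in fasted control ASO livers. Of these, 2 of 10 were called higher. The 7 stellate and fibroblast markers summed to 162 to 247 CPM and 126 to 161 CPM, with 2 of 7 called higher. Between ASOs in fasted liver 1.17% of all genes were called in either direction. The part of these markers in the Pklr and Gckr levels was not tested.

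In re-fed liver Pklr averaged 640.5 ± 320.1 CPM under PLIN5 ASO and 777 ± 137 CPM under control ASO (log2 fold change -0.28, SE 0.29, adjusted p = 0.632). Of the PLIN5 ASO livers 4 of 5, at 448 to 522 CPM, lay below the lowest control ASO liver, at 586 CPM, and PLIN5 ASO 3 lay above them all. Without that library the log2 fold change was -0.64 (adjusted p = 0.189). Khk averaged 749 ± 189 CPM under PLIN5 ASO and 605 ± 60.4 CPM under control ASO (log2 fold change 0.31, SE 0.17, adjusted p = 0.335). For Tkfc, Slc2a2, Gckr and Pfkl the re-fed log2 fold changes were 0.17, 0.24, -0.05 and -0.01, with 95% intervals of -0.13 to 0.47, -0.11 to 0.60, -0.27 to 0.18 and -0.16 to 0.15. Among the regulators, Mlxipl was lower under PLIN5 ASO averaged over both states (log2 fold change -0.47, adjusted p = 0.0318). It had 288 to 539 CPM in re-fed PLIN5 ASO livers against 509.7 to 811 CPM in re-fed control ASO livers, and 269 to 303 CPM in fasted PLIN5 ASO livers against 293 to 448 CPM in fasted control ASO livers. The groups overlapped in each state, and the averaged call was kept in 26 of 30 alternative settings.

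The last comparison, the interaction, asked whether re-feeding acted differently under the 2 oligonucleotides. By edgeR 0 of 7 members passed, with 0.0226% of all genes called, and there were 0 members at an unadjusted p under 0.05 and 0 by DESeq2 or by limma on FPKM. The estimates, as the log2 re-feeding response under PLIN5 ASO minus that under control ASO, were 0.42 for Khk (95% interval -0.10 to 0.94, adjusted p = 0.425), 0.38 for Pklr (-0.50 to 1.25, adjusted p = 0.695) and 0.30 for Gckr (-0.03 to 0.63, adjusted p = 0.368). They were 0.21 for Tkfc (-0.22 to 0.64), 0.07 for Slc2a2 (-0.45 to 0.58), 0.05 for Pfkl (-0.17 to 0.28) and -0.10 for Pfkfb1 (-0.49 to 0.29). Thus the calls of Gckr and Khk under PLIN5 ASO and not under control ASO are not shown to differ between the oligonucleotides. Without the 4 clock-shifted libraries the estimates were 0.16 for Khk, -0.15 for Pklr, 0.14 for Gckr and -0.37 for Slc2a2, none of which passed.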

How the data were processed

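Liver total RNA of 19 libraries was sequenced. The authors deposited a table of whole-number read counts per gene symbol and a table of FPKM per gene symbol. Tools in the submitters' processing notes are Cuffdiff 2.2.1, edgeR, FastQC, Subread and HISAT2 2.0.2, and builds are mm10 and GRCm38, all without roles. Annotation, strand setting and handling of multi-matching reads: not given in the sources used here. Count columns map to samples by the labels' descriptions.

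Counts were fitted with edgeR 4.0.16 (R 4.3.3), using TMM factors and filterByExpr by group (minimum count 10). All 19 libraries entered 1 fit with 1 mean for each group. Quasi-likelihood F tests were two-sided, with Benjamini-Hochberg adjustment across 13293 genes and a threshold of 0.05. Unless another tool is named, adjusted p-values are from this fit. The 5 planned comparisons set PLIN5 ASO against control ASO within each feeding state, re-fed against fasted livers within each ASO, and tested their interaction; 2 averaged contrasts were added after values were seen. Levels are CPM with the SD between libraries; depth per library was 24.9 to 66.9 counts in units of 1e6, and the biological coefficient of variation was 19.3%. Fits were tested on simulated data with known fold changes. The members, gene lists and marker lists were chosen with earlier results of these data known. Named genes are the members, called genes and some uncalled genes of those lists, and the 3 nearest genes of members called in a feeding comparison. Opposite-strand neighbours and genes that check labels or tissue are named as well. Saa1 was chosen after values were seen. Counts cover whole lists; some of their genes are not reported here.

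Alternatives were DESeq2 1.42.0, RLE size factors, no filter or a stricter one (at least 4 libraries at 1 CPM), the replicate number as a block, a fit restricted to both groups compared, leaving out each library or the 4 clock-shifted ones, summing fasted control ASO 3 and 4, offsets for transcript length (25 bins per library), and limma 3.58.1 on log2(FPKM + 1) or log2(FPKM + 0.1), unfiltered or at mean FPKM from 0.5. Gene positions are from GENCODE on GRCm38, matched by symbol; promoter sequences are from RefSeq on GRCm38.p6.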

Additional observations from a re-analysis of the deposited data

Results flagged for a closer look

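In 3 of 28 member and group combinations 1 library stood apart from the others by Dixon's test, which by chance picks about 1 in 20 groups. Pklr in re-fed PLIN5 ASO 3 was 1211 CPM, beside 448 to 522 CPM in the other 4 livers of that group. Tkfc in fasted PLIN5 ASO 2 was 200 CPM, beside 153 to 166 CPM in the others. Tkfc in fasted control ASO 1 was 140.1 CPM, beside 179 to 184 CPM in the other 3. Among those, fasted control ASO 3 and 4 had 184 and 182 CPM. The chance rate takes libraries as independent, which is not given for that closely alike pair.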

How the results depend on the processing

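The number of members called on re-feeding under PLIN5 ASO was 5 in 31 of 31 alternatives, and for the interaction it was 0 in 30 of 30. Under control ASO it was 3, where 1759 of 13293 genes were called. Without the 4 clock-shifted libraries it became 5, where Khk and Slc2a2 passed and 1167 of 13286 genes were called. It became 4, as Khk passed, with the stricter filter, DESeq2, a fit restricted to both groups compared, the length offsets and both filtered FPKM fits. For PLIN5 ASO against control ASO it was 0 in fasted liver and became 1, Pfkfb1, with DESeq2, with the replicate block and without the clock-shifted libraries (adjusted p = 0.0138, 0.0464 and 0.0409); in re-fed liver it was 0 and became 1, Pfkfb1, with DESeq2 (0.0355). Leaving out 1 library gave 5 to 5 members for re-feeding under PLIN5 ASO, 3 to 4 under control ASO, 5 to 6 averaged over ASOs, 0 to 1 for PLIN5 ASO in fasted liver, 0 to 0 in re-fed liver, 1 to 2 averaged over feeding states, and 0 to 0 for the interaction. The labels do not say that replicate numbers pair samples. Deviations of same-numbered libraries correlated above 0.1 in 9 of 27 pairs (range -0.21 to 0.38). Differently numbered pairs were not compared, so this check cannot decide whether the numbers pair samples. The block changed no other member's call. With it, genes called between ASOs went from 156 to 253 in fasted liver and from 183 to 290 in re-fed liver.

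Signs turned only for member values that were not called. Leaving out 1 library, Pfkl turned to 0.02 between ASOs in re-fed liver (without re-fed PLIN5 ASO 4, or re-fed control ASO 3 or 5; range -0.06 to 0.02) and to -0.04, -0.01 or 0.00 on re-feeding under PLIN5 ASO, Gckr to 0.03 between ASOs in re-fed liver (without re-fed control ASO 1; range -0.09 to 0.03), and the Slc2a2 interaction to -0.05, -0.03, -0.02 and -0.01 (range -0.05 to 0.18). Without the clock-shifted libraries the PLIN5 ASO against control ASO values in fasted liver turned to 0.01 for Pfkl, 0.09 for Khk and 0.02 for Tkfc, those of Pfkl to 0.07 in re-fed liver and 0.04 averaged, its re-feeding value under PLIN5 ASO to -0.07, and the interaction to -0.15 for Pklr and -0.37 for Slc2a2. Pfkl also turned to 0.01 between ASOs in re-fed liver with the length trend removed, to -0.01 on re-feeding under PLIN5 ASO with RLE factors, DESeq2 or a fit of the 2 groups and to 0.00 with the stricter filter, and in FPKM to 0.00 under control ASO and 0.01 averaged. Hcn3 on re-feeding, called in counts, was -0.02 under PLIN5 ASO, -0.05 under control ASO and -0.03 averaged in unfiltered FPKM. The cause was not tested.

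Without the clock-shifted libraries other genes lost calls while keeping their direction: on re-feeding under PLIN5 ASO Gapdh (log2 fold change 1.64), Pgam1 (0.33), Mlxipl (0.56), Pck1 (-0.65) and Slc37a4 (0.43, against 0.67 with all libraries), between ASOs Mlxipl averaged (-0.41, against -0.47) and Pfkfb2 in fasted liver (0.35, against 0.47). The Slc2a4 re-feeding call under control ASO was lost in the 3 FPKM fits and without fasted control ASO 1, 4 or 5. The spread between livers was wide for Pklr (coefficient of variation 50% in re-fed and 46.5% in fasted PLIN5 ASO livers).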

Other observations

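Arrdc4, a sugar-induced arrestin, rose on re-feeding under PLIN5 ASO by 0.64 on the log2 scale (SE 0.18, adjusted p = 0.0347 by edgeR), a call kept in 21 of 31 alternatives, at 0.27 to 0.74, and lost in the 3 FPKM fits and without any of 7 single libraries. Gpd1, which turns the triose phosphate of glycolysis into glycerol 3-phosphate, fell on re-feeding averaged over both oligonucleotides by 0.40 (SE 0.11, adjusted p = 0.0144), and was called in 30 of 30 alternatives.

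In fasted liver Pfkfb2 was called higher under PLIN5 ASO (log2 fold change 0.47, SE 0.10, adjusted p = 0.0275), a call kept in 21 of 31 alternatives. Pfkfb2 also rose on re-feeding under control ASO (0.49, SE 0.10, adjusted p = 0.00398), as Pfkfb1 did.

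Besides Pklr, the tested genes with the long element in a promoter window had log2 fold changes on re-feeding under PLIN5 ASO of 0.06 (A430005L14Rik), -0.08 (Crybg3), 0.09 (Fam124a) and 0.56 (Irak1bp1), with adjusted p between 0.392 and 0.874.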
